A study of Mus musculus with 8 samples.

Results

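The expression of 8 genes of arginine use was followed in tumor-associated macrophages (TAMs) with and without miR-21. The 8 genes are Nos2, Ass1, Asl, Slc7a2, Slc7a1, Odc1, Gch1 and Srm, taken by gene symbol from the 53247 genes of the deposited table. All 8 passed the filter on low values and were tested together with 13850 genes in all. LLC cells, which derive from a Lewis lung carcinoma, were implanted s.c. in C57/BL6 mice, and 14 days later, at a labelled age of 10 weeks, cells positive for F4/80, MHCII, CD11b and CD45 were sorted as TAMs. 4 samples came from WT mice and 4 from miR-21-/- mice, in which the gene is deleted in all cells of the host and not only in macrophages, and RNA-Seq was done on their mRNA. Replicates are numbered here in the order of the samples, which the labels in the miR-21-/- titles do not follow after replicate 1. In the title of miR-21-/- replicate 1 a pair of numbers is joined, with no word on pooling, and it was taken as 1 sample. The labels call the samples biological replicates without naming an animal for each, so p-values measure the spread between these samples.

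Macrophages take up arginine through the cationic amino acid transporters encoded by Slc7a1 and Slc7a2. Arginine can be split into urea and ornithine, which Odc1 decarboxylates to putrescine and Srm turns into spermidine. The inducible nitric oxide synthase Nos2 uses the same arginine, needs tetrahydrobiopterin, whose synthesis starts with Gch1, and releases citrulline, which Ass1 and Asl convert back to arginine. Nos2 is widely used as a marker of classically activated mouse macrophages.

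The microRNA that the knockout removes is shown because its seed, bases 2 to 8, in capitals, is the part that pairs with targets. Its sequence is from RefSeq on GRCm38.p6, chr11:86584120-86584141, minus strand.
mmu-miR-21a-5p: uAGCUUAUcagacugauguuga
The seed pairs with ATAAGCT in a 3′ UTR. Of the 8 genes, Slc7a2 alone held such a match in its longest annotated 3′ UTR (5774 bases), and no match of 6 or more bases was found in the annotated 3′ UTRs of the other 7 genes, which are 255 to 5030 bases long. Among 11447 tested genes with an annotated 3′ UTR, 26.6% held a match of at least 6 bases. Mir21a itself was listed at 0.0001 CPM (reads per 1000000), the lowest value of the table, in all 8 samples, which gives no check of the genotypes.

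Of the 8 genes, 2 rose in miR-21-/- TAMs and none fell. Nos2, which makes nitric oxide from arginine, and Ass1, which starts the return of its by-product citrulline to arginine, each had a mean that was more than 4 times the WT mean. Here a gene is called when limma, fitted over all 13850 genes on log2(CPM + 1), gave a Benjamini-Hochberg adjusted p of at most 0.005 and a fold change over 1.5. Among all tested genes 7.12% were called, 2.89% higher and 4.23% lower, which is 400 and 586 genes, against 528 and 348 after rescaling by the median of ratios. The 8 genes were chosen with earlier results of these data known. At an unadjusted p under 0.05 in limma, 5 of the 8 genes were higher and 2 lower, Slc7a1 and Srm, while 12.3% of all tested genes were higher and 34.1% lower at this limit. The 4 values of each genotype did not overlap for 4 of the 8 genes, 3 of them higher and 1 lower in miR-21-/- TAMs, against 35.1% of all tested genes. The median log2 fold change was 0.41 over the 8 genes and -0.10 over all tested genes (0.0015 after that rescaling), and all fold changes are miR-21-/- over WT on the log2(CPM + 1) scale.

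**Figure D1:**
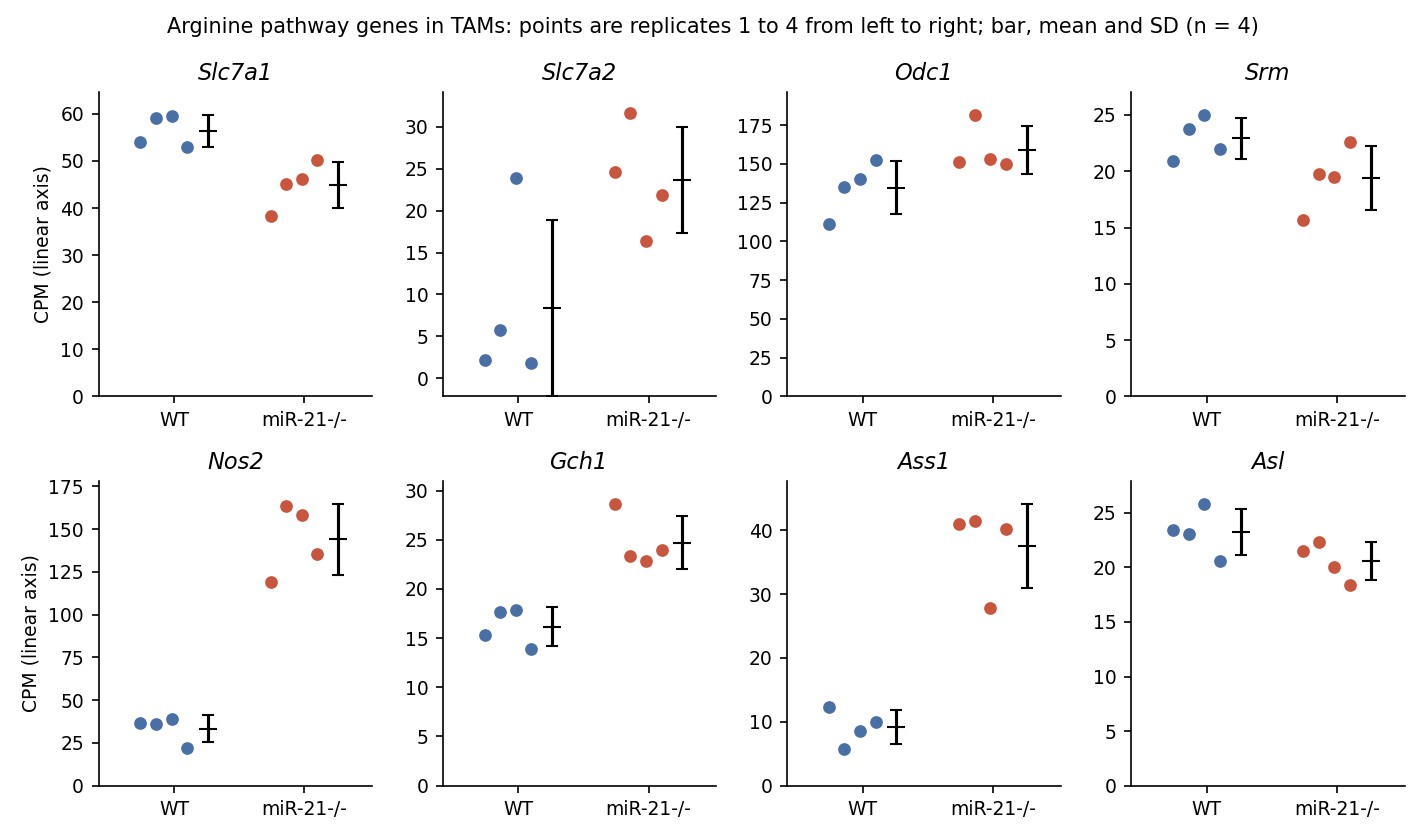
CPM of the 8 genes in each sample, with WT and miR-21-/- replicates 1 to 4 from left to right and the mean and SD (n = 4) beside them, each panel on its own linear axis. Nos2 and Ass1 show separate groups, while WT replicate 3 of Slc7a2, at 23.9 CPM, lies among the miR-21-/- samples.

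Odc1 (ENSMUSG00000011179.8, chr12:17544794-17551505, plus strand), which commits ornithine to polyamine synthesis, was at 111, 135, 140 and 152 CPM in WT and at 151, 182, 153 and 150 CPM in miR-21-/- replicates 1 to 4. The groups overlapped, because WT replicate 4 was above miR-21-/- replicates 1 and 4. The log2 fold change was 0.24 (95% interval 0.024 to 0.46, limma adjusted p = 0.0784).

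Srm (ENSMUSG00000006442.10, chr4:148591503-148594993, plus strand), the spermidine synthase, was at 20.9, 23.7, 25.0 and 22.0 CPM in WT and at 15.7, 19.8, 19.5 and 22.6 CPM in miR-21-/- replicates 1 to 4. The groups overlapped, with miR-21-/- replicate 4 inside the WT range. For Srm the log2 fold change was -0.24 (95% interval -0.47 to -0.0068, limma adjusted p = 0.0988). The intervals of the polyamine enzymes Odc1 and Srm both kept clear of a change of 1.5-fold in either direction.

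Nos2 (ENSMUSG00000020826.8, chr11:78920787-78960254, plus strand) was at 36.7, 35.8, 38.9 and 21.9 CPM in WT and at 119, 164, 158 and 135 CPM in miR-21-/- replicates 1 to 4. The lowest miR-21-/- sample stood far above the highest WT sample, and WT replicate 4 was the lowest of its group. Means of 33.3 ± 7.75 and 144 ± 20.7 CPM (SD, n = 4 each) gave an estimated log2 fold change of 2.10 (standard error 0.17, 95% interval 1.72 to 2.48, limma adjusted p = 2.99e-05). The call held under all 11 alternatives, of which 2 only loosened a limit, and whichever of the 8 samples was omitted, with log2 fold changes of 1.84 to 2.22.

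Ass1 (ENSMUSG00000076441.9, chr2:31470207-31520672, plus strand), the argininosuccinate synthase that starts the recycling of citrulline, was at 12.3, 5.77, 8.61 and 10.0 CPM in WT and at 40.9, 41.5, 27.8 and 40.2 CPM in miR-21-/- replicates 1 to 4. The groups did not overlap, and 3 of the miR-21-/- samples were nearly equal while replicate 3 was lower. Means of 9.17 ± 2.72 and 37.6 ± 6.56 CPM (SD, n = 4 each) gave an estimated log2 fold change of 1.95 (standard error 0.20, 95% interval 1.51 to 2.39, limma adjusted p = 0.000108). It was called under the same 11 alternatives and 8 omissions as Nos2, with log2 fold changes of 1.31, with a pseudocount of 10, to 2.09.

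Asl (ENSMUSG00000025533.15, chr5:130011258-130029247, minus strand), which completes the recycling by splitting argininosuccinate into arginine and fumarate, did not pass the test. It was at 23.5, 23.1, 25.8 and 20.6 CPM in WT and at 21.5, 22.4, 20.004 and 18.4 CPM in miR-21-/- replicates 1 to 4, with overlapping groups. Its log2 fold change was -0.17 (95% interval -0.36 to 0.018, limma adjusted p = 0.142). The interval of Asl does not reach that of Ass1, the enzyme before it.

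Gch1 (ENSMUSG00000037580.10, chr14:47153895-47189413, minus strand) was at 15.3, 17.7, 17.9 and 13.9 CPM in WT and at 28.7, 23.3, 22.8 and 23.9 CPM in miR-21-/- replicates 1 to 4. The groups were apart, with miR-21-/- replicate 1 the highest. The log2 fold change was 0.58 (standard error 0.099, 95% interval 0.36 to 0.80) and the limma adjusted p was 0.00179, so that Gch1 met the limit on p and lay just under the log2 of the 1.5-fold limit, 0.585. It passed both limits after rescaling by the median of ratios (0.69) or quantile normalization (0.69), with a pseudocount of 0.1 (0.61), and without WT replicate 2 or 3 or miR-21-/- replicate 2, 3 or 4. The limit on p was missed as well with no filter (limma adjusted p = 0.00882) and without WT replicate 1 (limma adjusted p = 0.00553). It was also missed with the replicate number, here only the order of the samples, as a block (limma adjusted p = 0.00560).

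**Figure D2:**
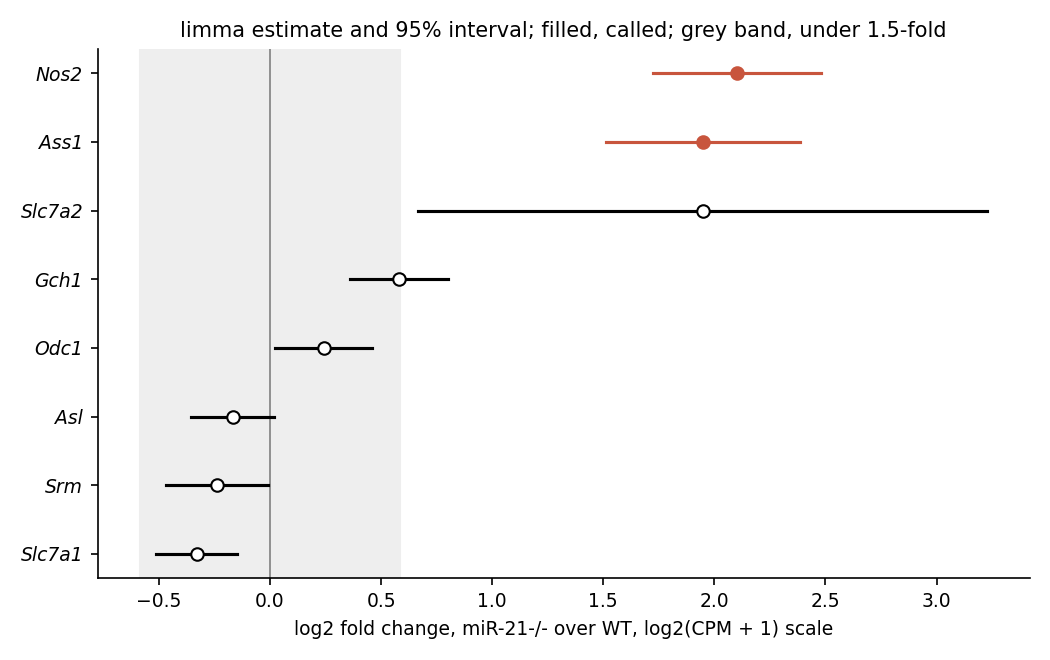
limma log2 fold changes of the 8 genes with 95% intervals, where filled points are called genes and the grey band marks changes under 1.5-fold. Nos2 and Ass1 lie outside the band with their whole interval, as Slc7a2 does without being called, and the intervals of Odc1, Asl, Srm and Slc7a1 lie inside it.

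Promoter entries of RefSeq were at hand for 4 of the 8 genes, Ass1, Gch1, Odc1 and Slc7a1. The 250 bases before the annotated start are shown for Ass1, which rose, and for Gch1, which was just under the limit, on GRCm38.p6 and 5′ to 3′ in the direction of the gene. RefSeq places the start of Ass1 further into the gene than the coordinates above do, so the end of the Ass1 window, with its match, lies after 31470207. Capitals mark the matches named after them.
Ass1, chr2:31470020-31470269, plus strand: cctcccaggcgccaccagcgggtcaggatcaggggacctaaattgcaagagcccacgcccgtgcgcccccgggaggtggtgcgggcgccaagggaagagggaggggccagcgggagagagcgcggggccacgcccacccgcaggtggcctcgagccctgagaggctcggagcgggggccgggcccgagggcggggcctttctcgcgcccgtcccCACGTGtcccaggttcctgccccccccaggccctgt
Gch1, chr14:47189414-47189663, minus strand: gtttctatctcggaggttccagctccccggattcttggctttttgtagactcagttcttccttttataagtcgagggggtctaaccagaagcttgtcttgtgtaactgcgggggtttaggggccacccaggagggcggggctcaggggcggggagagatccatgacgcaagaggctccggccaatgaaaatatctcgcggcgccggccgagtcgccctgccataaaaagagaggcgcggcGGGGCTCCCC
Both strands of the 300 bases from 250 before to 50 after each start were searched for TTCNNNGAA, the letters of a gamma-activated site, for ACGTG, the core of the hypoxia response element, for CACGTG, the E-box that MYC and other factors bind, and for the NF-κB consensus. The Ass1 window held CACGTG, which contains ACGTG on both strands, and the Gch1 window held a match to the NF-κB consensus directly before the start. The Odc1 window and the upstream window of Slc7a1 held none of the 4, while a window at a second start of Slc7a1 held TTCNNNGAA. Of 32851 such windows of all genes, 8.30% held TTCNNNGAA, 19.6% ACGTG, 7.15% CACGTG and 8.46% the NF-κB consensus.

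Slc7a2 (ENSMUSG00000031596.15, chr8:40862396-40922308, plus strand), the cationic amino acid transporter known as inducible in macrophages, was at 2.14, 5.71, 23.9 and 1.87 CPM in WT and at 24.6, 31.6, 16.4 and 21.9 CPM in miR-21-/- replicates 1 to 4. WT replicate 3 was at the level of the miR-21-/- samples and the other WT samples were far below them. The log2 fold change was 1.95 (standard error 0.58, 95% interval 0.66 to 3.23, limma adjusted p = 0.0250), short of the limit. Without WT replicate 3 it was 2.61 with an adjusted p of 0.000632, and the gene was called. With a pseudocount of 10 the log2 fold change was 1.00, not called. WT replicate 3 was the least deeply sequenced of the 8.

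The 3′ UTR of Slc7a2 held 3 matches to the miR-21 seed, and binding of miR-21 to them was not tested. These were 1 that matches all of seed bases 2 to 8 (ATAAGCT), 1 that matches bases 2 to 7 and has an A after them, opposite base 1 (TAAGCTA), and 1 that matches bases 2 to 7 alone. The first and second are shown on GRCm38 in the transcript ENSMUST00000057784.14, with those letters in capitals.
Slc7a2, match at chr8:40918322-40918328: tgctctttggcATAAGCTgacgttcattg
Slc7a2, match at chr8:40919309-40919315: aatttagatttTAAGCTAttttaagatat
A match of the first or second kind, or both joined, was present in 12.4% of those 11447 genes, whose 3′ UTRs were not matched in length to that of Slc7a2. The called genes Nos2 and Ass1 held no match in annotated 3′ UTRs of 502 and 255 bases.

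Slc7a1 (ENSMUSG00000041313.14, chr5:148327410-148399904, minus strand), the transporter that most cells use, was at 54.0, 59.1, 59.6 and 53.1 CPM in WT and at 38.2, 45.1, 46.1 and 50.1 CPM in miR-21-/- replicates 1 to 4. Here every miR-21-/- sample was below every WT sample. The log2 fold change was -0.33 (standard error 0.082, 95% interval -0.51 to -0.15, limma adjusted p = 0.0117), which missed both limits and was negative under every alternative and whichever sample was omitted. The estimates of the transporters thus had opposite signs, 1.95 for Slc7a2 and -0.33 for Slc7a1, and their intervals did not meet.

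To compare levels between genes, CPM was divided by the length of all annotated exons of a gene in kb. In WT TAMs Odc1 had the highest mean, 39.5 ± 5.06 CPM per kb, followed by Srm with 14.3 ± 1.14 CPM per kb (SD, n = 4 each). Nos2, Slc7a1, Asl, Ass1 and Gch1 followed between 7.55 and 2.59 CPM per kb, and Slc7a2 was the lowest with 0.920 ± 1.15 CPM per kb. Of the 7 pairs of neighbours in this order, 2 had separate sample ranges, Odc1 above Srm and Srm above Nos2.

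In miR-21-/- TAMs Odc1 led with 46.7 ± 4.51 CPM per kb, above Nos2 with 32.7 ± 4.69 CPM per kb (SD, n = 4 each). Ass1 and Srm came next with 15.6 and 12.1 CPM per kb and overlapping ranges. Asl, Gch1, Slc7a1 and Slc7a2 followed, from 4.26 down to 2.59 CPM per kb, and each overlapped its neighbour. Here 3 of the 7 neighbouring pairs were separate, those of Odc1 with Nos2, Nos2 with Ass1, and Srm with Asl. The order depends on the length used, and per kb of the longest coding transcript Asl stood above Nos2 in WT TAMs, with means of 9.64 and 7.95 CPM per kb.

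**Figure D3:**
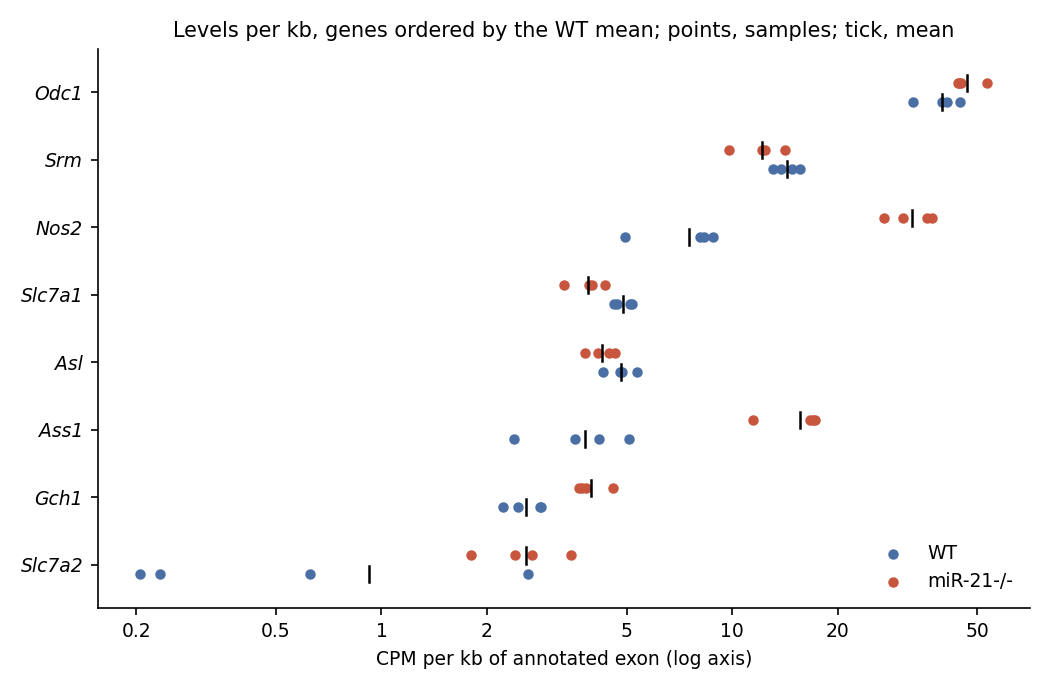
CPM per kb of annotated exon for the 8 genes on a log axis, with points for samples and ticks for the means of WT and miR-21-/- TAMs. Odc1 has the highest and Slc7a2 the lowest mean in both genotypes, and Nos2 is below Srm in WT TAMs and above it in miR-21-/- TAMs.

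The other nitric oxide synthases were looked up beside Nos2. Nos1, the neuronal enzyme, was at 16.9, 31.0, 20.97 and 27.9 CPM in WT and at 15.6, 17.1, 15.01 and 11.01 CPM in miR-21-/- replicates 1 to 4, and is named after its values were seen. Its groups overlapped narrowly, with the WT samples on the higher side, and its log2 fold change was -0.66 (limma adjusted p = 0.0193). Per kb it averaged 2.17 CPM in the WT and 1.32 CPM in the miR-21-/- samples, below Nos2 in every sample. Nos3, the endothelial enzyme, was below the filter with at most 0.174 CPM.

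Further genes of the pathway were taken from a list of 57, of which 43 were tested. None rose and 2 fell, or 4.65% of those tested, where 4.23% of all tested genes fell, and the median log2 fold change was -0.16. At an unadjusted p under 0.05 in limma, 3 of the 43 were higher and 18 lower, against 12.3% and 34.1% of all tested genes, and 2 were called higher after rescaling by the median of ratios. Paox, an oxidase that breaks down acetylated polyamines, fell, with means of 38.3 ± 6.37 CPM for WT and 16.9 ± 1.96 CPM for miR-21-/- (SD, n = 4 each; -1.12 on the log2 scale, standard error 0.12, limma adjusted p = 0.000151). The WT values were 33.7, 45.8, 41.2 and 32.3 CPM and the miR-21-/- values 14.2, 18.9, 17.6 and 17.0 CPM, with a wide gap between the groups. Gamt, the enzyme of the last step of creatine synthesis, fell as well, with means of 6.59 ± 1.08 CPM for WT and 3.32 ± 0.383 CPM for miR-21-/- (-0.81 on the log2 scale, limma adjusted p = 0.000803), a call that was lost with a pseudocount of 10 or no filter.

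The other 41 tested genes of the list were not called in this fit. Of all 43 tested, 8 met the limit on p, the 2 called genes among them. The highest log2 fold change was that of Slc3a2, the heavy chain that pairs with amino acid transporters, with means of 177 ± 16.3 CPM for WT and 264 ± 10.0 CPM for miR-21-/- (SD, n = 4 each; 0.58, limma adjusted p = 0.000266), just under the fold limit. It passed both limits by the median of ratios (0.70) and without WT replicate 1 or 3 or miR-21-/- replicate 4. By role, 0 of 5 transporters, 1 of 11 genes of arginine, citrulline and ornithine use, 0 of 10 genes of nitric oxide and tetrahydrobiopterin and 1 of 17 polyamine genes were called. Of the 10 genes of nitric oxide and tetrahydrobiopterin, 2 had a positive and 8 a negative estimate. Their median was -0.24, against -0.10 over all tested genes (0.0015 for all genes by the median of ratios). At an unadjusted p under 0.05 in limma, 0 were higher and 6 lower, against 12.3% and 34.1% of all tested genes. The reads of the near-identical copies Amd1 and Amd2 on the list may be shared between them.

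Genes known to regulate this pathway were taken from a list of 26, all tested, of which 5 rose and 1 fell (23.1% called, against 7.12% of all tested genes). The median log2 fold change was -0.0050. Of the 10 genes on the side of IFN-γ and NF-κB, which are known to induce Nos2, 3 rose and 1 fell, and at an unadjusted p under 0.05 in limma 5 were higher and 2 lower, against 12.3% and 34.1% of all tested genes. Socs1, an inhibitor induced by the same signals, had the largest log2 fold change of the list, 2.14 (1.25 with a pseudocount of 10, below the 1.56 of Irf1), with means of 5.18 ± 1.09 CPM for WT and 26.2 ± 5.36 CPM for miR-21-/- (SD, n = 4 each; limma adjusted p = 1.66e-05). Irf1, a transcription factor of the IFN-γ response, rose by 1.63 on the log2 scale, and the cytokine Tnf by 0.97. Ifngr1, a chain of the IFN-γ receptor, fell by 0.72 on the log2 scale (limma adjusted p = 0.000195). The NF-κB subunits Nfkb1 and Rela, picked out with their values in view, stood at -0.060 and -0.017 on the log2 scale.

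Of the 12 genes on the side of IL-4, cAMP and hypoxia, which are known from alternatively activated and hypoxic macrophages, 2 rose and none fell. Hif1a, the hypoxia-inducible factor that is known to act on Nos2, averaged 228 ± 36.8 CPM for WT and 467 ± 63.5 CPM for miR-21-/-, or 1.03 on the log2 scale (SD, n = 4 each; limma adjusted p = 0.000248). Il4ra, the receptor chain for IL-4 and IL-13, rose by 0.75 on the log2 scale (limma adjusted p = 0.00119). With no filter on low values the limma adjusted p of Il4ra was 0.00868 and that of Tnf 0.00874, and both calls were lost. At an unadjusted p under 0.05 in limma, 3 of these 12 genes were higher and 4 lower, against the same 12.3% and 34.1%. The lowest value of all 26 genes was that of Klf4, a factor associated with alternative activation, with a log2 fold change of -1.13 (limma adjusted p = 0.00535), groups that did not overlap and a p just over the limit. On the growth side, Myc, Max, Mxi1 and Mxd1, none was called, and at an unadjusted p under 0.05 in limma 1 was higher and 1 lower.

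**Figure D4:**
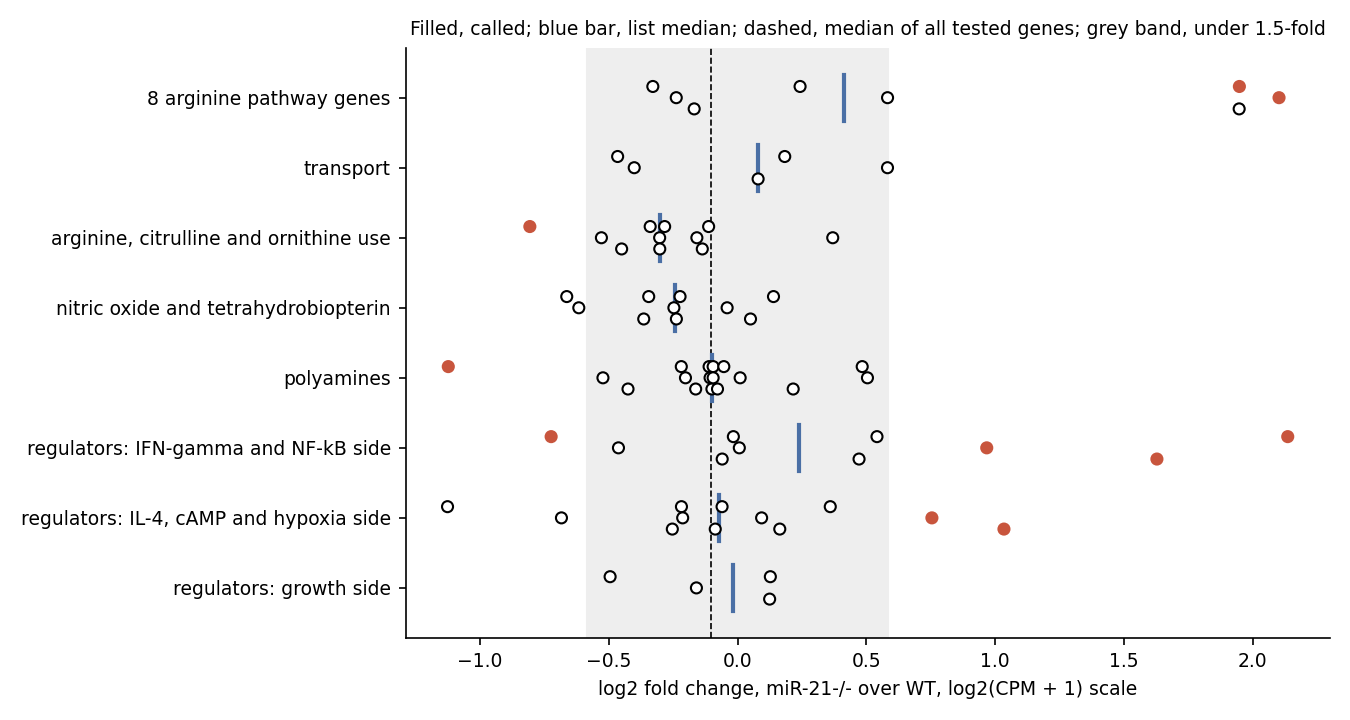
limma log2 fold changes of the 8 genes, of 4 groups of further pathway genes and of 3 groups of regulators, where filled points are called genes, blue bars the medians of the lists and the dashed line the median of all tested genes, -0.10. Called genes above the grey band of changes under 1.5-fold occur among the 8 genes and in 2 of the 3 groups of regulators, and none in the 4 further pathway groups.

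The sorted cells carried the macrophage markers Ptprc, Itgam, Adgre1, Cd68, Csf1r, Mertk, Fcgr1 and H2-Ab1, whose sum was 7393 to 8390 CPM in the WT and 6584 to 7947 CPM in the miR-21-/- samples. Of these 8 markers, Fcgr1 rose by 0.75 on the log2 scale and 6 had negative estimates. Among the 6 were Adgre1, which encodes the sorting marker F4/80 (-0.38), and Csf1r (-0.48), both under the fold limit and with groups apart. Adgre1 met the limit on p and Csf1r did not (limma adjusted p = 0.00140 and 0.00538). Markers of other cells were present at lower levels, and markers named here were picked with their values in view. The sum of 8 neutrophil markers was 770 to 1169 CPM in the WT and 574 to 748 CPM in the miR-21-/- samples, with 0 of 7 tested markers called and 5 lower at an unadjusted p under 0.05 in limma, as were 34.1% of all tested genes. The sum of 6 fibroblast markers was 60.7 to 137 CPM in the WT and 10.1 to 44.1 CPM in the miR-21-/- samples, and 3 of 5 tested markers, Col1a1, Col3a1 and Pdgfra, fell. The sum of 4 B cell markers was 10.8 to 16.8 CPM in the WT and 3.60 to 10.00 CPM in the miR-21-/- samples, and the 1 tested marker, Cd79b, fell. For 5 epithelial or tumour markers the sums were 18.8 to 24.8 and 12.7 to 17.9 CPM, with 0 of 3 tested markers called and 1 lower at an unadjusted p under 0.05 in limma. For 8 T and NK cell markers the sums overlapped, at 17.0 to 36.4 and 6.99 to 30.7 CPM. Of 6 tested markers Cd4 fell by 2.35 on the log2 scale while the other 5 had positive estimates. The highest was 1.28 for Cd8a, not called but with groups apart. Cd4 weighed most in the WT sums, with a mean of 16.6 CPM against 2.20 CPM for Cd3e, the next highest. The sums of 6 dendritic cell markers were 11.2 to 19.9 and 15.2 to 38.4 CPM, those of 4 monocyte markers 448 to 840 and 349 to 626 CPM, and those of 4 endothelial markers 151 to 299 and 198 to 286 CPM. Pecam1 made up most of the endothelial sums, with means of 192 CPM for WT and 218 CPM for miR-21-/-. Of the 6 dendritic cell, 4 monocyte and 3 endothelial markers tested, none was called. At an unadjusted p under 0.05 in limma 1 was higher and 4 lower, against 12.3% and 34.1% of all tested genes. Among them were Clec9a, Cd209a and Plac8, with log2 fold changes of 1.26, -1.28 and -0.96. The sum of 7 markers of cycling cells was 604 to 782 CPM in the WT and 502 to 909 CPM in the miR-21-/- samples. Each marker of these lists had a value above the lowest of the table in at least 1 sample. Some stayed under 1 CPM in every sample, such as Krt19 with at most 0.149 CPM and Tek with at most 0.0991 CPM. The part of other cells in the values of the 8 genes was not tested. In bulk samples, fewer cells with a transcript and less transcript per cell cannot be told apart.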

How the data were processed

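RNA of FACS-sorted TAMs was sequenced in 4 WT and 4 miR-21-/- samples after mRNA library preparation. According to the submitters' processing notes, reads were handled with STAR and Partek 7.0 on mm10, and the roles and parameters of these tools are not given in the sources used here. The deposited values are CPM, computed by the authors, each raised by 0.0001, and do not hold counts. From the step between low values, 1 read is worth 0.0300 to 0.0495 CPM, which puts the depth at 20200000 to 33300000 reads. CPM is relative to all reads of a sample, so a shift in a few abundant genes moves all others.

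Values were transformed to log2(CPM + 1), genes with a mean under 1 CPM were left out, and limma 3.58.1 (R 4.3.3, eBayes with trend) compared miR-21-/- with WT samples over 13850 genes, with Benjamini-Hochberg adjustment over all of them. Called genes had an adjusted p of at most 0.005 and a fold change over 1.5. The fit was also run on data simulated with normal errors on the log2(CPM + 1) scale, as limma assumes. That run cannot show whether the real values follow this model. Genes named beyond the 8 were the called genes and the highest and lowest estimate of the pathway and regulator lists, and others are named as seen after their values. The 8 genes and the lists were chosen with earlier results of these data known, and some genes of these lists are not reported here. Gene models were those of GENCODE vM21, whose start and end are those of the table for all 8 genes, and promoter and miRNA sequences those of RefSeq on GRCm38.p6. The closing section gives the effect of other pseudocounts, filters, scalings, limits, the replicate block and leaving out each sample.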

Additional observations from a re-analysis of the deposited data

Results flagged for a closer look

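In 5 of 36 groups of 4 samples looked at, 1 sample stood apart from the other 3, with a gap beyond the 95% critical value of Dixon's test, and chance gives such a gap in about 1 of 20 groups. Ass1 in miR-21-/- replicate 3 was low, at 27.8 CPM against 40.2 to 41.5 CPM. Odc1 in miR-21-/- replicate 2 was high, at 182 CPM against 150 to 153 CPM. Among the regulators, Tnf was high in miR-21-/- replicate 1, at 75.3 CPM against 55.3 to 58.2 CPM. Hif1a was high in the same replicate, at 561 CPM against 425 to 445 CPM. Il4ra was low in miR-21-/- replicate 4, at 686 CPM against 820 to 839 CPM. Slc7a2 in WT replicate 3 fell just short of this limit, with a gap of 0.826 of the range.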

How the results depend on the processing

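The signs of the 8 genes and of Gamt, Paox, Slc3a2, Ifngr1, Irf1, Tnf, Socs1, Il4ra, Hif1a and Klf4 were kept in all 234 values that an alternative or the omission of a sample estimated anew, and the alternatives were not run for the single markers and other genes named. With the 108 values in which only the p or a limit could change, 318 of 342 kept their side of the limits, 4 lost and 20 gained a call. Of the 8 genes, 2 to 3 were called higher under the alternatives, and 2 to 4 with 1 sample left out (4 without WT replicate 3). Of the further pathway genes, 2 were called higher by the median of ratios and 2 with no fold limit, and 0 to 1 with 1 sample left out. Those called lower were 1 with a pseudocount of 10, 1 with no filter, 6 with no fold limit and 4 at an adjusted p of 0.05. Regulators called higher were 3 with no filter, 7 by the median of ratios and 8 with no fold limit, against 5. Those called lower were 3 with arrayWeights, 3 with no fold limit, 3 at an adjusted p of 0.05, and 1 to 2 with 1 sample left out. The cause of these changes was not tested. Over all genes, 452 were called with a pseudocount of 10 and 515 with no filter, against 986. Replicate numbers, which are the order of the samples, did not pair them (correlations 0.083, -0.11, -0.14 and 0.22). The same number in the titles is shared by WT replicate 3 and miR-21-/- replicate 2 (0.14), and by WT replicate 4 and miR-21-/- replicate 3 (0.032). A block by the titles was not run. With the block by replicate number 2 of the 8 genes were called higher and 922 of all genes were called. A count test was not run, since only 74.0% to 74.9% of the low values came out as whole reads within 0.02 reads. No alternative for genes below the filter gave a value, because all 8 genes passed it. At 46 reads in its lowest sample, Slc7a2 had the least depth of the 8 genes.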
